A study of Homo sapiens with 44 samples.

Results

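The 39 genes described here encode the machinery of regulated secretion: the proteins of synaptic vesicles and of dense-core granules, their cargo and the enzymes that process it. They were chosen by name, with earlier results of these data known, as rows of the gene-level count table. All 39 were present among its 23367 gene rows. The measurements are RNA-seq counts from IMR5/75, a human neuroblastoma cell line, carrying a short hairpin RNA against MYCN under tetracycline control. All 44 libraries came from this line, held with thymidine for 18 h and sampled at 0, 3, 6, 8, 10, 12, 14, 16, 18, 20 and 22 h after release. In the Tet plus arm (22 libraries) tetracycline was given and the hairpin induced, and in the Tet minus arm (22 libraries) it was not. Each arm had 2 numbered replicates at each time. A control hairpin, or tetracycline on a line without the hairpin, was not analysed here, so effects of the drug, of the hairpin and of lower MYCN cannot be told apart.

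Cells that secrete on demand keep transmitters in small synaptic vesicles and peptides in larger dense-core granules, and both kinds fuse with the plasma membrane when calcium enters. Fusion is driven by SNARE proteins, is prepared by priming factors and active zone scaffolds, and is triggered by synaptotagmins, the calcium sensors. Neuroblastoma arises from the sympathoadrenal lineage, whose cells store noradrenaline together with granins and neuropeptides in dense-core granules, and granule contents serve as markers of this tumour.

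Libraries held 10.9 to 25.3 M counts (median 20.1 M), and the 8 Tet plus libraries of 16 to 22 h were the shallowest group, at 10.9 to 19.8 M. Up to 14 h the same-numbered libraries of both arms at a time shared a sequencing lane in their titles, but at 16 to 22 h the Tet plus libraries had another form of title and other lanes than the Tet minus libraries. At those times the arm and the lane and title form cannot be told apart, so the times 0 to 14 h carry the arm comparison. Spike-in RNA took 0.0544 to 0.376% of the counts in the Tet plus libraries of 16 to 22 h and 1.13 to 3.43% in the Tet minus libraries of those hours. MYCN itself was lower in Tet plus cells, at 1036 ± 86.6 CPM (counts per 1000000 of the scaled library size) against 1257 ± 142 CPM in Tet minus cells (SD over n = 14 libraries each), both at 0 to 14 h. Its log2 fold change was -0.27 (SE 0.0460, edgeR adjusted p = 2.71e-05). Of the single times, only 0 and 14 h were read for MYCN. It was not called at 0 h (-0.079, SE 0.122, adjusted p = 0.858) or at 14 h (-0.18, adjusted p = 0.464). Of 12 markers of noradrenergic neuroblastoma cells, 11 had a median of at least 1 CPM, while TH, the first enzyme of noradrenaline synthesis, had a median of 0.053 CPM. The islet genes INS, GCG and PDX1 and the blood genes CD3E and HBB were at 0 in all 44 libraries, while NKX6-1 of the islet list had a median of 18.0 CPM and the blood genes LYZ and PTPRC had medians of 0.316 and 0.192 CPM. In the mesenchymal list VIM, FN1, COL3A1 and PRRX1 were detected in all 44, POSTN in 0 and COL1A2 in 1. The summed level of the 8 mesenchymal and fibroblast markers was 689 to 1591 CPM in Tet plus and 711 to 1409 CPM in Tet minus libraries of 0 to 14 h. Of its 6 tested genes 2 were higher and 0 lower in Tet plus cells averaged over 0 to 14 h (20.1% and 21.3% of all genes; median log2 fold change 0.16). With the replicate number as a block, 3 were higher and 2 lower (26.5% and 25.6% of all genes), and the part of this list in the results was not tested.

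Promoters, the 250 bases before and 50 bases after each gene's start, were found in RefSeq (GRCh38.p14) for 30 of the 39 genes, and CADPS2, CPLX1, PTPRN2, RIMS2, SCG2, SNAP25, SYN3, SYT7 and SYT13 had no entry there. 4 are printed. VGF had the widest course of all members in Tet minus cells, PCSK1 shares a motif with VGF but was hardly detected, and CADPS and CPE were the members called between arms at 4 or more of the first 7 times. Capitals mark matches, on either strand, to the E-box CACGTG, to the cyclic AMP response element TGACGTCA, to TTCAGCACC (the left part of the RE1 element) or to TATAAA. Each is written 5′ to 3′ on the gene's own strand: VGF from chr7:101165520-101165819 (minus), PCSK1 from chr5:96433199-96433498 (minus), CADPS from chr3:62875367-62875666 (minus) and CPE from chr4:165378758-165379057 (plus).
VGF: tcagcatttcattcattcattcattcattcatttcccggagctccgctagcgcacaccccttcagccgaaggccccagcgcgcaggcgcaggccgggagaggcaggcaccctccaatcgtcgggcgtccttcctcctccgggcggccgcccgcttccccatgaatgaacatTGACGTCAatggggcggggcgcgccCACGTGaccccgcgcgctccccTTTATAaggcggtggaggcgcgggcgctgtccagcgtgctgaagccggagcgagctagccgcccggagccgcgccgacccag
PCSK1: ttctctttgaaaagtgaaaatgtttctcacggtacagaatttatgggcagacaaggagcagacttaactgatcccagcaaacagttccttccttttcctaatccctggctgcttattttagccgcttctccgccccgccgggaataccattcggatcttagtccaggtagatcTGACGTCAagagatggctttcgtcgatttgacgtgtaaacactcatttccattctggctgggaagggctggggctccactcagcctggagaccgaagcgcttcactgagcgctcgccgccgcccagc
CADPS: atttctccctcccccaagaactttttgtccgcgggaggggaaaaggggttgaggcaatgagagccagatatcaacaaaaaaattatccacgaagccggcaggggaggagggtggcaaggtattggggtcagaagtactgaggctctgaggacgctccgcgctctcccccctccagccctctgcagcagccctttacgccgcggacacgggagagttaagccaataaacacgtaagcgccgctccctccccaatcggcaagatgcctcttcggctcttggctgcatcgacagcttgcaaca
CPE: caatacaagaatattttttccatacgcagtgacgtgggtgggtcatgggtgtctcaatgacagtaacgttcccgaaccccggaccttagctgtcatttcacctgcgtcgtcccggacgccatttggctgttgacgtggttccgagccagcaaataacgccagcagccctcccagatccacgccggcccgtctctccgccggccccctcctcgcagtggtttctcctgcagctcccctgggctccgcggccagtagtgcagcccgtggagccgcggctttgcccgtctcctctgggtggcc
In the VGF promoter the response element starts 79 bases before the gene's start, the E-box 54 bases before it and the TATAAA match, on the opposite strand, 32 bases before it. In the PCSK1 promoter the response element starts 77 bases before the start. The promoters of CADPS and CPE held none of the 4 motifs. Among the members with a promoter, TGACGTCA was found for PCSK1, SYN1 and VGF (1.98% of all 27305 promoters), CACGTG for UNC13A and VGF (7.43% of all), TTCAGCACC for SCG3, SYN1 and UNC13A (0.403% of all), and TATAAA for VGF (12.0% of all). A match describes the letters in these 300 bases and does not show that a factor binds there.

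Nearly the whole module was transcribed in these cells. 31 of the 39 genes were at 1 CPM or more in all 44 libraries, and 4 had a median under 1 CPM. PCSK1, the prohormone convertase that makes the first cuts in many granule peptides, had 8 counts in all, spread over 6 libraries. CADPS2, a priming factor and paralog of CADPS, had 2 counts in 2 libraries. These 2 genes were not tested, and the other 37 were. SCG5, the chaperone of the second convertase PCSK2, reached 1 CPM in 0 libraries, and SYT5, a vesicle synaptotagmin, reached it in 4.

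Per kilobase of exon the most abundant member was CPE, carboxypeptidase E, which trims the ends of granule peptides, with a median of 86.2 CPM per kb in Tet plus libraries, against 59.0 CPM per kb in Tet minus libraries. SYT11, a synaptotagmin that binds little calcium, followed at 67.4 CPM per kb in Tet plus libraries, against 48.7 CPM per kb in Tet minus libraries. The complexin CPLX2, which binds the assembled SNARE complex, stood at 38.8 CPM per kb in Tet plus libraries, against 43.3 CPM per kb in Tet minus libraries. Thus the leading 3 places in Tet minus cells went to a granule enzyme, a synaptotagmin and a complexin. The granin SCG2, a precursor of secretoneurin, had 44.9 CPM per kb in Tet plus libraries, against 37.9 CPM per kb in Tet minus libraries. The vesicle membrane protein synaptophysin (SYP) had 32.5 CPM per kb in Tet plus libraries, against 24.9 CPM per kb in Tet minus libraries. SYT1, the calcium sensor of fast release, had 28 CPM per kb in Tet plus libraries, against 23.8 CPM per kb in Tet minus libraries. These medians run over all 22 libraries of an arm, and neighbours in this order were not tested against each other. Exons of SYN1 overlap ARAF and those of VAMP1 overlap TAPBPL on the opposite strand, and the strand setting of the counting is not given in the sources used here, so the counts of SYN1 and VAMP1 may hold reads of these neighbours.

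At 0 to 14 h the secretion genes that passed the test between arms were higher with the hairpin induced. VGF and SYPL1 were exceptions when the replicate number was taken as a block. Averaged over 0 to 14 h, 11 of the 37 tested genes were higher in Tet plus cells and 0 were lower (edgeR quasi-likelihood test, Benjamini-Hochberg adjusted p under 0.05 over 14534 genes). At an unadjusted p under 0.05 these counts were 16 and 0, and DESeq2 gave 13 and 0. Of all genes tested, 20.1% were higher and 21.3% lower, so the share of members called higher was above the background and that called lower was below it. As the members were chosen with earlier results of these data known, this comparison describes them and does not test them as a set. The median log2 fold change of the 37 was 0.27, against 0.01 for all genes, and 32 of the 37 had a value above 0, against 51.5% of all genes. Same-numbered libraries of both arms varied together, and with the replicate number as a block 21 members were higher and 2 lower, against 26.5% and 25.6% of all genes. All 11 calls were kept with the block. Scaled by the spike-in RNA instead, the 37 gave 0 calls, as most genes did (44 of all genes higher, 4 lower), and the median of all genes was 0.13. UNC13A (0.18) and SCG5 (0.055) turned above 0 under that scaling, and CADPS was at 1.23 (adjusted p = 0.0969). In bulk RNA, a change in the share of cells that express a gene and a change in RNA per cell cannot be told apart.

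Among the priming and active zone genes, CADPS, RIMS1 and RIMS2 were higher in Tet plus cells. CADPS, which primes docked granules and vesicles, had 20.3, 23.9 and 29.6 CPM (lowest, median and highest of 14 libraries) in Tet plus cells, against 9.60, 11.2 and 13.3 CPM in Tet minus cells. The arms did not overlap. It was higher by 1.13 on the log2 scale, a fold of 2.18 (SE 0.0573, adjusted p = 7.03e-14). RIMS1, a scaffold that binds vesicle RAB3, had 6.93, 9.70 and 13.1 CPM in Tet plus libraries, against 5.67, 7.47 and 8.25 CPM in Tet minus libraries, overlapping at the low end of the Tet plus range, and was higher by 0.39 (SE 0.102, adjusted p = 0.00321). Its paralog RIMS2 had 27.7, 32.9 and 46.9 CPM in Tet plus libraries, against 20.3, 26.6 and 39.3 CPM in Tet minus libraries, with wide overlap, and was higher by 0.32 (SE 0.104, adjusted p = 0.0145). UNC13A, which opens syntaxin during priming, had a log2 fold change of -0.04 and passed in neither fit.

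Among the 6 synaptotagmins, SYT11 and SYT13 were higher in Tet plus cells. SYT11 had 309, 349 and 456 CPM in Tet plus libraries, against 217, 256 and 282 CPM in Tet minus libraries. Every Tet plus library lay above every Tet minus library, and the log2 fold change was 0.49 (SE 0.0693, adjusted p = 2.98e-06). SYT13, an atypical synaptotagmin that does not bind calcium, was low in both arms, at 1.32, 2.15 and 2.99 CPM in Tet plus libraries, against 0.905, 1.57 and 2.68 CPM in Tet minus libraries. Its ranges overlapped over most of their length, and it was higher by 0.35 (SE 0.113, adjusted p = 0.0139). SYT1 had a log2 fold change of 0.19 (adjusted p = 0.0769, with the block 0.000365), and SYT4, which sits on peptide granules, one of 0.30 (adjusted p = 0.222, with the block 6.11e-05). SYT5 passed with the block too (0.62, adjusted p = 0.0356). SYT7, the high-affinity sensor of slow release, had 0.09 and passed in neither fit.

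Of the 4 SNARE genes and 2 complexins, which carry out and regulate fusion, 0 were called without the block. At an unadjusted p under 0.05 there was 1, VAMP1, which DESeq2 also called. SNAP25, a plasma membrane SNARE, had a log2 fold change of 0.33 (adjusted p = 0.131) and VAMP1, a vesicle SNARE, one of 0.29 (adjusted p = 0.0536). Both passed with the block, at adjusted p = 0.000272 for SNAP25 and 0.0295 for VAMP1. STX1A, the partner of SNAP25 at the plasma membrane, had 0.16 and VAMP2, the main vesicle SNARE of brain, had 0.19. CPLX1 had 0.19 and CPLX2 0.10, and none of these 4 passed in either fit.

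Of 9 vesicle membrane genes, SNAP91 and SV2B were higher. SNAP91, the clathrin adaptor AP180 that takes vesicle membrane back after fusion, had 9.34, 14.1 and 16.4 CPM in Tet plus libraries, against 4.66, 6.90 and 10.0 CPM in Tet minus libraries. The lowest Tet plus library lay just under the highest Tet minus library, and the log2 fold change was 0.93, a fold of 1.91 (SE 0.138, adjusted p = 4.87e-06). SV2B, a vesicle glycoprotein, had 2.36, 2.79 and 4.93 CPM in Tet plus libraries, against 1.47, 2.17 and 3.21 CPM in Tet minus libraries, with overlap, and was higher by 0.48 (SE 0.101, adjusted p = 0.000397). SYP had 61.5, 119 and 181 CPM in Tet plus libraries, against 41.5, 90.7 and 131 CPM in Tet minus libraries. Replicates of SYP stood far apart in each arm. Its log2 fold change of 0.41 had an SE of 0.297 and an adjusted p of 0.285 without the block, and 0.38, 0.0548 and 8.18e-07 with it. The glycoprotein SV2A and the synapsin SYN2, which ties vesicles to the reserve pool, passed with the block too, at log2 fold changes of 0.19 and 0.23. SYPL1, a synaptophysin relative found in many tissues, had a log2 fold change of -0.13 with the block, which passed (adjusted p = 0.0284). The synapsins SYN1 (0.22) and SYN3 (0.19) and the glycoprotein SV2C (-0.13) passed in neither fit.

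RAB3B, a small GTPase of vesicles, had 54.5, 69.3 and 106 CPM in Tet plus libraries, against 40.3, 45.3 and 58.8 CPM in Tet minus libraries. The ranges overlapped only between 54.5 and 58.8 CPM, and the log2 fold change was 0.59, a fold of 1.51 (SE 0.0857, adjusted p = 3.70e-06). Its paralogs had log2 fold changes of 0.14 (RAB3A) and 0.11 (RAB3C), and the granule GTPase RAB27B had 0.27, and these 3 passed in neither fit.

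Of the granule genes, the processing enzymes CPE and PCSK2 and the cargo protein SCG3 were higher in Tet plus cells. CPE had 158, 192 and 231 CPM in Tet plus libraries, against 114, 137 and 155 CPM in Tet minus libraries, with no overlap. It was higher by 0.50, a fold of 1.41 (SE 0.0498, adjusted p = 9.52e-09). PCSK2, the convertase that completes peptide processing, had 2.95, 4.42 and 6.17 CPM in Tet plus libraries, against 1.57, 3.03 and 5.80 CPM in Tet minus libraries, which overlapped, and was higher by 0.55 (SE 0.177, adjusted p = 0.0134). Of the cargo, SCG3, a granin that binds the granule membrane, had 24.3, 31.5 and 46.1 CPM in Tet plus libraries, against 17.4, 22.5 and 33.4 CPM in Tet minus libraries, with overlap. It was higher by 0.42 (SE 0.146, adjusted p = 0.0226). Leaving out the Tet minus 12 h replicate 2 (adjusted p = 0.0505) or the Tet plus 14 h replicate 1 (adjusted p = 0.0606) ended that call. SCG2 had a log2 fold change of 0.12 and SCG5 one of -0.08, and neither passed. The granule membrane proteins PTPRN and PTPRN2, known as diabetes autoantigens, had 0.28 (adjusted p = 0.165) and 0.36 (adjusted p = 0.0612), and both passed with the block (adjusted p = 3.19e-05 for PTPRN and 0.0103 for PTPRN2).

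VGF, the precursor of several neuropeptides, had the lowest log2 fold change of the 37 genes. It had 13.6, 34.1 and 122 CPM in Tet plus libraries, against 14.5, 59.2 and 249 CPM in Tet minus libraries of 0 to 14 h. The ranges overlapped almost throughout, and the spread over times and replicates within an arm was wider than the difference between arms. Its log2 fold change was -0.64 (SE 0.318, adjusted p = 0.113), and with the block it was -0.70 (SE 0.183, adjusted p = 0.00188). Without the Tet plus replicate 1 of 3 h, of 6 h or of 8 h, VGF moved past the threshold in the fit without the block, at -0.91, -0.97 and -0.90. At these times replicate 1 stood far above replicate 2 in Tet plus cells (122 against 13.6 CPM at 6 h). Leaving it out sets replicate 2 alone against both Tet minus replicates, so these fits do not by themselves show a lower level.

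**Figure D1:**
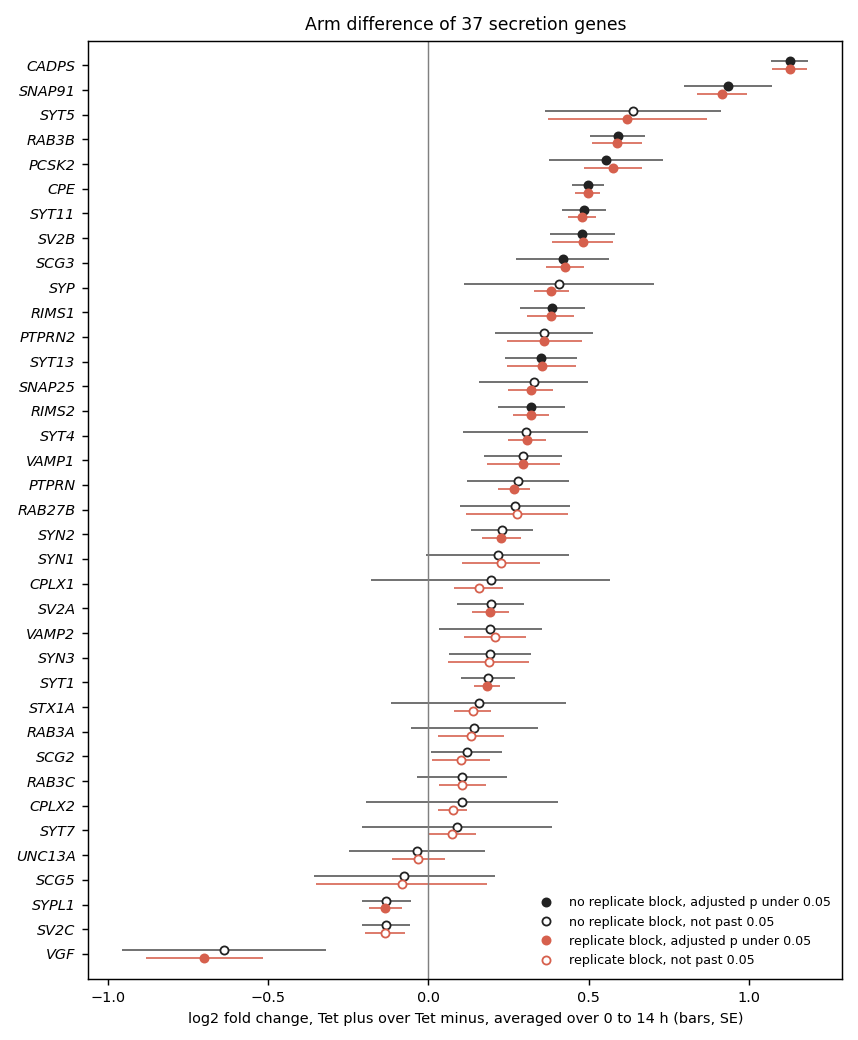
Log2 fold change, Tet plus over Tet minus, averaged over 0 to 14 h, for the 37 tested genes, with bars of 1 SE and 1 colour for each fit (with and without the replicate block); filled points are past an adjusted p of 0.05. CADPS stands farthest to the right at 1.13 and VGF farthest to the left at -0.64, and 32 of the 37 genes lie above 0.

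At the single times the order of the libraries was steadier than the number of calls. For 6 genes, CADPS, SYT11, SNAP91, SV2B, RAB3B and CPE, both Tet plus libraries lay above both Tet minus libraries at all 7 times from 0 to 14 h, which held for 3.18% of all genes. In each of these 6 the arms did not overlap at any early time. CADPS in Tet plus cells had 21.5 and 26.6 CPM at 0 h, 23 and 29.6 CPM at 6 h and 29.4 and 26.3 CPM at 14 h. In Tet minus cells it had 12.4 and 12.0 CPM at 0 h, 12.7 and 11.1 CPM at 6 h and 10.3 and 10.9 CPM at 14 h. The arms were thus apart from the first sample on, at the end of the thymidine hold. The log2 fold change of CADPS was 0.98 at 0 h, 0.87 at 3 h, 1.15 at 6 h, 1.14 at 8 h, 1.05 at 10 h, 1.3 at 12 h and 1.39 at 14 h, called at each of these times and kept when any 1 library of that time was left out (largest adjusted p = 0.0479).

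Members called higher numbered 1 at 0 h, 2 at each time from 3 to 12 h and 3 at 14 h, and 0 were lower at any of them (also 0 at an unadjusted p under 0.05). Of all genes 0.564% were higher at 0 h, 1.02% at 3 h, 2.65% at 6 h, 1.38% at 8 h, 1.36% at 10 h, 1.62% at 12 h and 2.04% at 14 h, and 1.00%, 1.70%, 4.44%, 2.06%, 2.04%, 2.57% and 3.34% were lower at these times in the same order. With the block 5 were higher at 0 h, 5 at 3 h, 6 at 6 h and 7 at each time from 8 to 14 h, and CADPS, CPE, SNAP91 and SYT11 were among them at all 7 times. The block shares of all genes called higher were 3.93% at 0 h, 4.25% at 3 h, 7.89% at 6 h, 5.99% at 8 h, 5.40% at 10 h, 6.14% at 12 h and 7.98% at 14 h. CPE was called at 3 h (0.47), 8 h (0.57), 10 h (0.68), 12 h (0.50) and 14 h (0.52). Each of these 5 calls ended without some library of its time: at 3 h any of the 4 (adjusted p up to 0.436), at 8 h either Tet minus library or the Tet plus replicate 2 (up to 0.143), at 10 h the Tet minus replicate 2 or the Tet plus replicate 1 (up to 0.098). At 12 h it ended without either Tet minus library or the Tet plus replicate 1 (up to 0.484), and at 14 h without the Tet minus replicate 2 or the Tet plus replicate 1 (up to 0.300). RAB3B was called at 6 h (0.98, adjusted p = 0.00932; 0.101 without the Tet minus replicate 1 and 0.269 without the Tet plus replicate 2). SYT11 was called at 14 h (0.68, adjusted p = 0.0268), and this call ended without either Tet minus library or the Tet plus replicate 1 (up to 0.430).

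**Figure D2:**
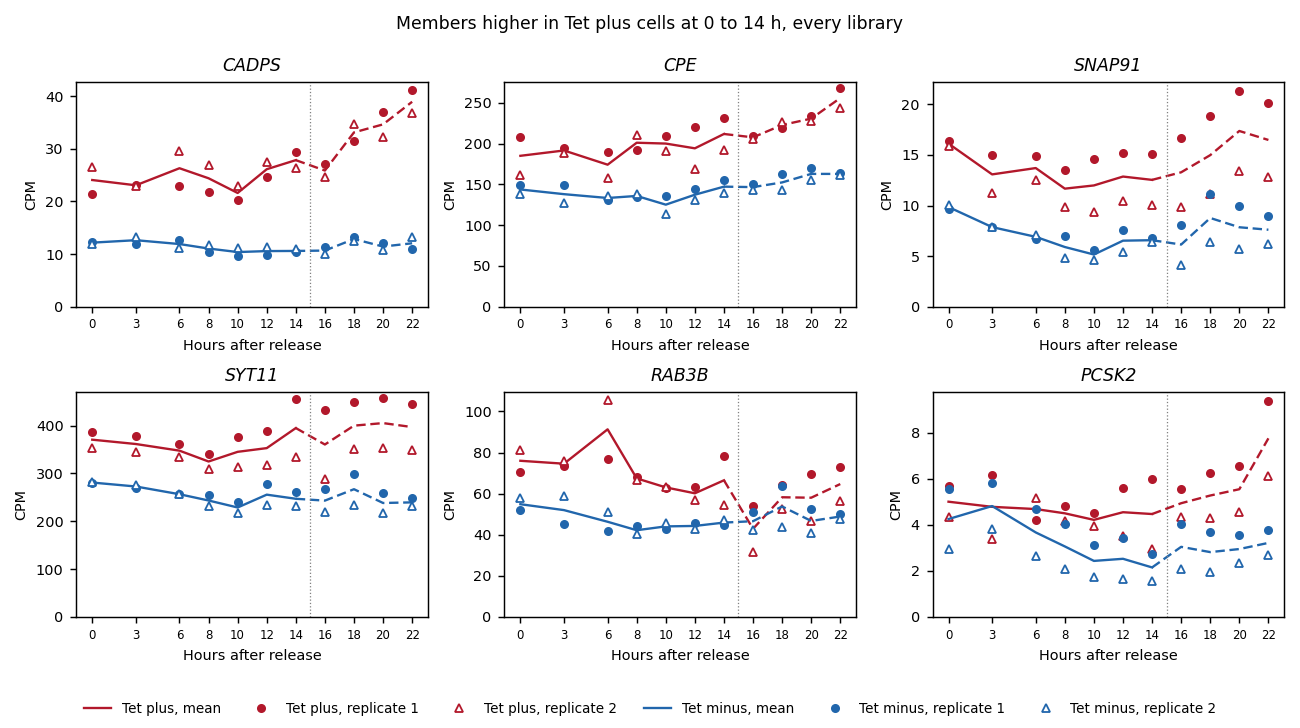
CPM (y axis) against hours after release (x axis) for the members with the strongest arm difference, with Tet plus and Tet minus in separate colours, circles for replicate 1, triangles for replicate 2 and lines for the mean of both. The dotted line marks the border between 14 and 16 h. After it the Tet plus libraries had another form of title and other lanes than the Tet minus libraries. CADPS in Tet plus cells lies between 20.3 and 29.6 CPM up to 14 h, above all Tet minus libraries.

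The arm difference was not found to depend on time. In the edgeR test of that dependence over 0 to 14 h, 0 of 37 members passed (0.0138% of all genes). At an unadjusted p under 0.05 there were 0 members, the smallest p being 0.0935 for SYT13 (CADPS 0.233). With the block 0 members passed (0.151% of all genes), and 2 had an unadjusted p under 0.05, the smaller being 0.0262. Within the lanes of 0, 3 and 6 h, 6 members were higher (8.33% of all genes), and within the lanes of 8, 10 and 12 h also 6 (9.58% of all genes). With the block these counts were 12 higher and 1 lower (15.8% and 15.8% of all genes) in the first lanes and 15 higher and 2 lower (16.9% and 17.2%) in the second. PCSK2 had a log2 fold change of 0.20 within the lanes of 0, 3 and 6 h (edgeR adjusted p = 0.660). It had 0.74 within those of 8, 10 and 12 h (0.0541) and 1.07 within those of 14 h (0.213). With the block these adjusted p were 0.207, 6.49e-05 and 0.00387. The edgeR test of its dependence on time had an unadjusted p of 0.675 without the block, so a growing difference was not shown.

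**Figure D3:**
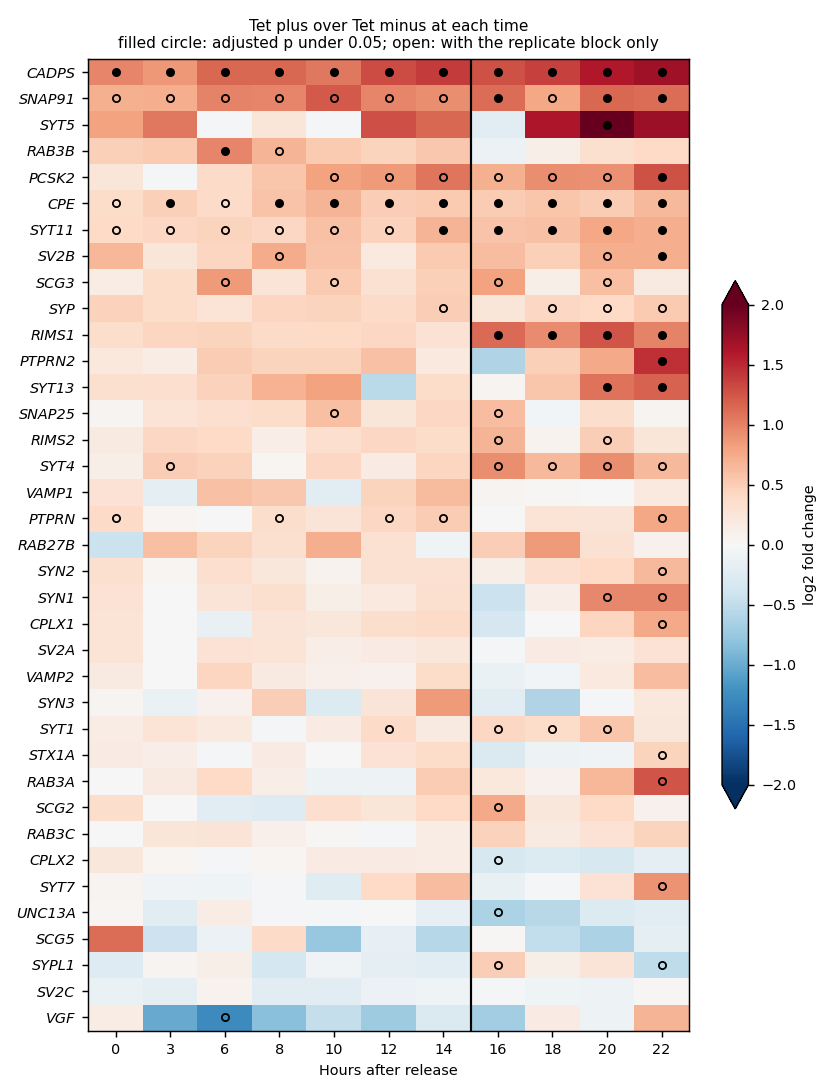
Log2 fold change, Tet plus over Tet minus, of each tested member (rows) at each time (columns, hours after release), on a colour scale from -2 to 2; filled circles are past an adjusted p of 0.05, open circles are so with the replicate block alone, and the vertical line separates 0 to 14 h from 16 to 22 h. CADPS carries a filled circle at all 11 times.

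Courses over time were tested within each arm. In Tet plus cells over 0 to 14 h, 1 of 37 members changed (10.4% of all genes). In Tet minus cells over 0 to 22 h, 4 of 37 changed (19.7% of all genes). Both shares were below the background. With the block 6 members changed in Tet plus cells (25.9% of all genes) and 19 in Tet minus cells (46.8% of all genes), the second share being close to its background. Times of 1 course lie in different lanes, so the comparisons of 6 with 0 h, 12 with 8 h and 22 with 16 h, which lie within lanes for each arm, are given too.

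SCG2 was higher at 6 h than at 0 h in both arms. In Tet plus cells it had 225 and 105 CPM at 6 h against 83.5 and 70.8 CPM at 0 h, and in Tet minus cells 188 and 197 CPM at 6 h against 59.3 and 61.7 CPM at 0 h. In both arms both libraries of 6 h were above both of 0 h, and the Tet plus replicates differed at 6 h. The log2 fold change of 6 over 0 h was 1.09 in Tet plus cells (SE 0.296, adjusted p = 0.0438) and 1.67 in Tet minus cells (SE 0.300, adjusted p = 0.00107). The Tet plus call ended without 0 h replicate 1 (adjusted p = 0.214), 0 h replicate 2 (0.138) or 6 h replicate 1 (0.472), while the Tet minus call was kept without any 1 of its 4 libraries. By 14 h SCG2 was at 141 and 122 CPM in Tet plus cells, against 94.1 and 106 CPM in Tet minus cells, and by 22 h at 98.3 and 59.6 CPM in Tet plus cells, against 65.8 and 83.4 CPM in Tet minus cells. Its course test in Tet minus cells had an adjusted p of 0.000687 and was kept without any 1 of the 22 libraries.

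VGF had the widest range of all members in Tet minus cells. In Tet plus cells replicate 1 had 27.2 CPM at 0 h, 90.8 at 3 h, 122 at 6 h, 117 at 8 h, 77.6 at 10 h and 42.2 at 14 h, while replicate 2 had 15.7 CPM at 0 h, 13.8 at 3 h, 13.6 at 6 h, 18.2 at 8 h, 40.9 at 10 h and 23.9 at 14 h. In Tet minus cells replicate 1 had 24.5 CPM at 0 h, 154 at 3 h, 249 at 6 h, 186 at 8 h, 103 at 10 h and 53.6 at 14 h, while replicate 2 had 14.5 CPM at 0 h, 56.2 at 3 h, 79.3 at 6 h, 55.5 at 8 h, 62.2 at 10 h and 27.5 at 14 h. The highest value came at 6 h in 3 of these 4 series, and in Tet plus replicate 2 the highest value came at 10 h. The Tet minus means spanned 15.8-fold between 6 h (164 CPM) and 22 h (10.4 CPM), and the course test had an adjusted p of 0.00712, kept without any 1 of the 22 libraries. In the step of 6 over 0 h the log2 fold change was 1.65 in Tet plus cells (SE 0.865, adjusted p = 0.355) and 3.07 in Tet minus cells (SE 0.905, adjusted p = 0.0745). With the block these were 1.35 (adjusted p = 0.0870) and 2.93 (adjusted p = 0.000308). At 6 h the arm difference of VGF with the block was -1.45 (adjusted p = 0.0351), and VGF was the 1 member called lower at a time up to 14 h, against 9.48% of all genes at 6 h.

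SV2C, a vesicle glycoprotein, and RAB27B were the other members whose course passed without the block. SV2C had 16.0 and 23.6 CPM at 6 h against 9.69 and 12.5 CPM at 0 h in Tet plus cells, and 19.7 and 18.1 CPM at 6 h against 10.9 and 13.4 CPM at 0 h in Tet minus cells. In both arms the 6 h libraries lay above the 0 h libraries, with a log2 fold change of 0.84 in Tet plus cells (SE 0.198, adjusted p = 0.0179) and of 0.64 in Tet minus cells (adjusted p = 0.0945, with the block 0.0164). The Tet plus step lost its call without 0 h replicate 1 (adjusted p = 0.437) or 6 h replicate 2 (0.556). The course of SV2C passed in Tet plus cells (adjusted p = 0.0274) and in Tet minus cells (0.0352). It was lost without any of 5 of the 14 Tet plus libraries (up to 0.220, without 0 h replicate 1) and any of 14 of the 22 Tet minus libraries (up to 0.177, without 0 h replicate 1). RAB27B in Tet minus cells had 2.78 and 3.78 CPM at 0 h, 1.12 and 1.29 CPM at 6 h and 1.28 and 1.40 CPM at 14 h, with 0 h above all later times. Its course (adjusted p = 0.0181) was lost without 0 h replicate 1 (0.0613) or 0 h replicate 2 (0.195).

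In the step of 6 over 0 h, 2 members were higher in Tet plus cells (1.78% of all genes) and 1 in Tet minus cells (1.86% of all genes), and 0 were lower in either arm (0.729% of all genes in Tet plus and 0.489% in Tet minus cells). With the block 3 were higher in Tet plus cells (4.86% of all genes), and 4 higher and 1 lower in Tet minus cells (4.0% and 2.31%). From 8 to 12 h 0 members changed in either arm (0.0344% of all genes higher and 0.186% lower in Tet plus, 0.0688% higher and 0.764% lower in Tet minus cells). At an unadjusted p under 0.05 there were 1 in Tet plus and 2 in Tet minus cells. From 16 to 22 h CADPS was the 1 member that rose within Tet plus cells, where 2.59% of all genes rose and 4.65% fell, by 0.59 (SE 0.149, adjusted p = 0.0158). It had 41.1 and 36.7 CPM at 22 h against 27.1 and 24.7 CPM at 16 h in Tet plus cells, and 10.9 and 13.2 CPM at 22 h against 11.4 and 9.97 CPM at 16 h in Tet minus cells. That call ended without the Tet plus 16 h replicate 2 (adjusted p = 0.213), 22 h replicate 1 (0.123) or 22 h replicate 2 (0.0737), and 0 members changed between 16 and 22 h in Tet minus cells (1.17% of all genes higher, 0.475% lower; 3 members at an unadjusted p under 0.05). With the block 4 were higher and 2 lower in Tet plus cells (8.46% and 9.80% of all genes), and 1 was higher and 4 lower in Tet minus cells (6.94% and 5.34%). Among members whose log2 CPM averaged 1 or more, PTPRN2 had the third widest range in Tet minus cells after VGF and SCG2, 2.50-fold between the means of 3 h (2.78 CPM) and 22 h (1.11 CPM), with a course adjusted p of 0.139 without the block and 0.00838 with it. The low genes SYT5 (5.33-fold), RAB27B (4.37-fold) and SCG5 (3.24-fold) ranged more widely there, and in Tet plus cells SCG5 (3.78-fold) ranged more widely than VGF (3.16-fold).

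**Figure D4:**
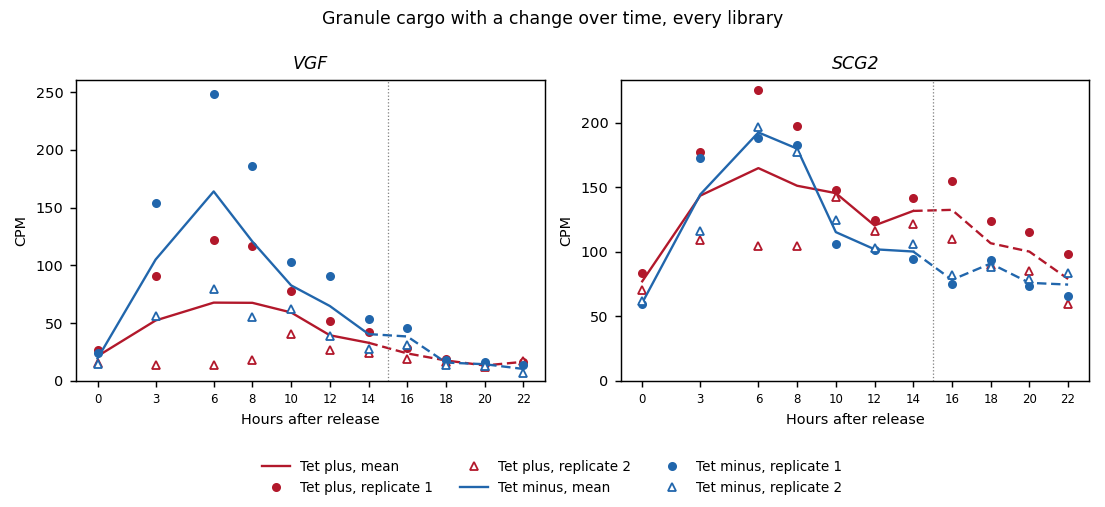
CPM (y axis) against hours after release (x axis) for the granule cargo genes VGF and SCG2, drawn as in the plot of the arm difference by time. VGF peaks at 6 h in both Tet minus replicates (249 and 79.3 CPM) and in Tet plus replicate 1 (122 CPM) but not in Tet plus replicate 2 (13.6 CPM).

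At 16 to 22 h, where arm and lane cannot be told apart, 15 of 37 members were higher in Tet plus cells (26.3% of all genes) and 0 were lower (26.8% of all genes), and 23 and 2 with the block (32.1% and 30.5% of all genes). The 2 lower with the block were UNC13A (-0.44, edgeR adjusted p = 0.00149) and CPLX2 (-0.25, adjusted p = 0.000708). 9 of the 15 were also called at 0 to 14 h. CADPS had 24.7, 33.4 and 41.1 CPM in Tet plus libraries, against 9.97, 11.7 and 13.3 CPM in Tet minus libraries (lowest, median and highest of 8), and its log2 fold change was 1.48 (SE 0.0766, adjusted p = 1.87e-14). RIMS1 had 10.0, 15.5 and 20.0 CPM in Tet plus libraries, against 5.80, 7.10 and 8.56 CPM in Tet minus libraries, and was higher by 1.09 (SE 0.136, adjusted p = 1.91e-07). PCSK2 had 4.29, 5.83 and 9.38 CPM in Tet plus libraries, against 1.93, 3.11 and 4.02 CPM in Tet minus libraries, and was higher by 0.96 (adjusted p = 0.00140). In these 3 genes the arms did not overlap. Both Tet plus libraries lay above both Tet minus libraries at all 4 times for CADPS, RIMS1, SYT11, CPE and PCSK2 (10.1% of all genes). Time by time, 5 members were higher at 16 h (12.9% of all genes), 4 at 18 h (7.53%), 7 at 20 h (10.2%) and 9 at 22 h (12.1%), and 0 were lower (14.0%, 11.2%, 13.7% and 16.3% of all genes in the same order). With the block 13, 9, 15 and 18 were higher (19.4%, 14.0%, 17.8% and 20.2% of all genes), 2 were lower at 16 h, UNC13A and CPLX2 (19.5%), and 1 at 22 h, SYPL1 (21.0%). Among genes not called earlier, SYT4 was higher by 0.79, SYT1 by 0.39 and SYN2, SCG2 and PTPRN2 by 0.37, 0.37 and 0.52. The calls of SYT4 and SYN2 ended without the Tet plus 18 h or 20 h replicate 1 (adjusted p up to 0.0624). Those of SCG2 and PTPRN2 ended without any of 10 and of 12 of the 16 libraries, and that of RIMS2 (0.37) without any of 8 (adjusted p up to 0.151). SYT5 was higher by 1.40 (SE 0.407, adjusted p = 0.00505; 0.151 without the Tet plus 18 h replicate 1), at levels of 0.145 to 1.32 CPM in Tet plus and 0.0468 to 1.01 CPM in Tet minus libraries. RAB3B (0.18, adjusted p = 0.192) and SCG3 (0.43, adjusted p = 0.0665), called at 0 to 14 h, were not called here, and VGF was at 0.01. Without the Tet plus 18 h replicate 1 the count was 9 higher and 1 lower.

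Replicate levels stood apart in many of these genes. Replicate 1 exceeded replicate 2 by 0.5 or more on the log2 scale, as a mean over the 22 groups of arm and time, in 15 of 37 members (40.5%), against 5.81% of all genes. The median of the members was 0.36, against -0.00 for all genes. The largest mean differences were in CPLX1 (1.54, a fold of 2.90), CPLX2 (1.24), SYP (1.22), SYT7 (1.19), STX1A (1.10) and VGF (1.08). At 0 h SYP had 181 CPM in replicate 1 and 75.5 CPM in replicate 2 of the Tet plus arm, and 128 and 58.6 CPM in those of the Tet minus arm. In 11 members, among them both complexins, SYP, SNAP25 and SYT1, replicate 1 was higher in all 22 groups (4.04% of all genes). CADPS had a mean replicate difference of -0.05.

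**Figure D5:**
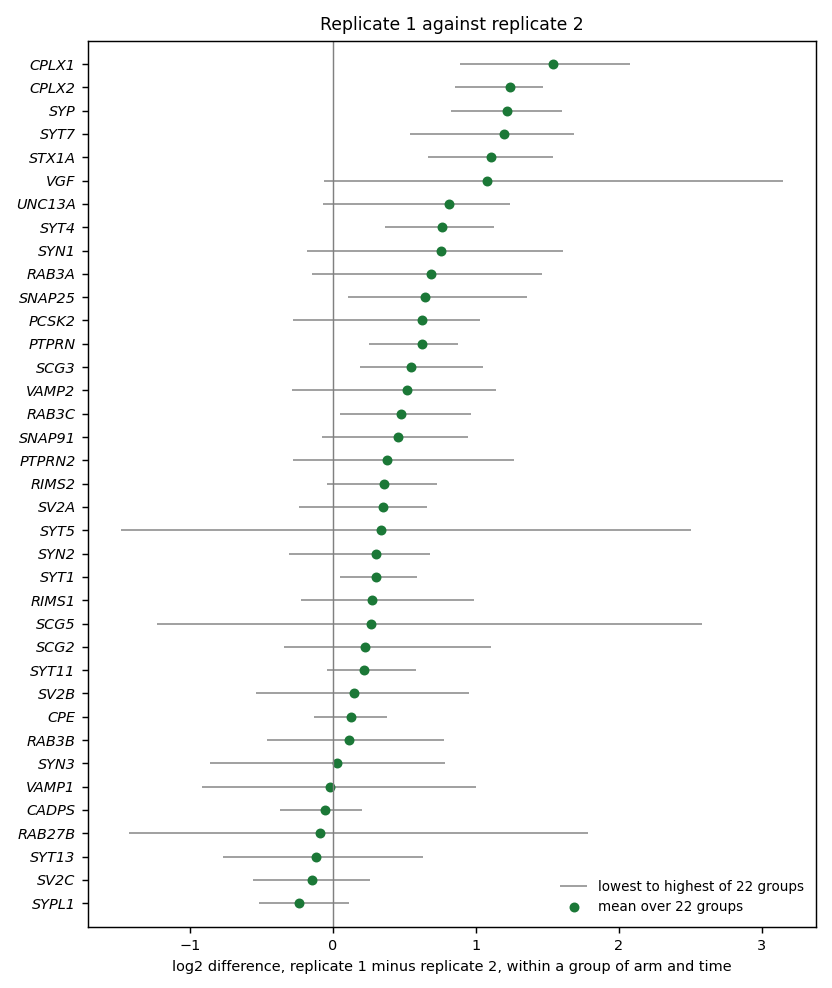
Mean log2 difference between replicate 1 and replicate 2 of the same arm and time for each tested member (points, over 22 groups), with lines from the lowest to the highest group. CPLX1 lies farthest to the right at 1.54, and CADPS lies near 0, at -0.05.

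Other genes of the same pathways were read from 9 lists, whose counts at 0 to 14 h stand against 20.1% of all genes higher and 21.3% lower, or 26.5% and 25.6% with the block. Of 17 tested partners of RAB3 and RAB27, 9 were higher and 0 lower in Tet plus cells at 0 to 14 h (median log2 fold change 0.35). With the smallest p in that list were SYTL3, a RAB27 effector (0.75), RAB3D (0.35) and MYRIP, which links RAB27 to myosin (0.29). Of 11 active zone genes 3 were higher and 0 lower (median 0.18; 8 and 0 with the block), namely RIMBP2, which joins scaffolds to calcium channels (0.89), RIMS3 (0.74) and PCLO, a giant scaffold protein (0.70). Of 25 other fusion and priming genes 6 were higher and 1 lower (median 0.17; 11 and 2 with the block), with the priming factor UNC13B at 0.27. Of 7 other synaptotagmins 2 were higher and 1 lower (median 0.12), the lower one being SYT2 (-0.60), a fast calcium sensor. Of 14 other vesicle membrane and transporter genes 3 were higher and 2 lower (median 0.10; 5 and 2 with the block), with SYNPR, a synaptophysin relative, at 1.74 and the synaptogyrin SYNGR2 at -0.38. Of 20 vesicle endocytosis genes 4 were higher and 2 lower (median -0.01; 7 and 2 with the block), led by the dynamin DNM3 at 0.65. Of 21 granule biogenesis genes 8 were higher and 1 lower (median 0.09), led by ICA1, a protein of granule formation, with 57.3 ± 3.67 CPM in Tet plus libraries, against 32.5 ± 2.83 CPM in Tet minus libraries (SD, n = 14 each; 0.82). Of 8 genes of REST, a repressor of neuronal genes, and its partners, 1 was higher (RCOR3, 0.26) and 1 lower (HDAC1, -0.17), with a median of -0.02 (1 and 2 with the block).

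Other granule cargo and processing genes were mixed: of 12 tested, 4 were higher and 2 lower (median 0.09; 4 and 3 with the block). ADCYAP1, the precursor of the neuropeptide PACAP, had 6.84 ± 1.41 CPM in Tet plus libraries, against 2.44 ± 0.426 CPM in Tet minus libraries (SD, n = 14 each; log2 fold change 1.48, SE 0.0803, adjusted p = 1.58e-13). Chromogranin A (CHGA), the main granin of adrenal granules, had 468 ± 84.4 CPM in Tet plus libraries, against 299 ± 67.4 CPM in Tet minus libraries (0.66, SE 0.100, adjusted p = 7.80e-06). Galanin (GAL), a neuropeptide, was lower, at 65.1 ± 15.2 CPM in Tet plus libraries, against 92.6 ± 23.1 CPM in Tet minus libraries (-0.51, SE 0.107, adjusted p = 0.000392). Beside these, 7 of 11 tested noradrenergic markers were higher and 0 lower (20.1% and 21.3% of all genes, median of the markers 0.39), a list that shares CHGA and CHGB with the cargo list. Its summed level was 1278 to 2099 CPM in Tet plus and 1008 to 1547 CPM in Tet minus libraries of 0 to 14 h, and its part in the results was not tested.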

How the data were processed

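RNA from IMR5/75 cells was freed of ribosomal RNA and made into directional libraries, with ERCC spike-in RNA added, per the labels' protocols. The deposited values are whole-number counts per gene, which the authors made with TopHat2 2.0.5, HTSeq and hg19, per the submitters' processing notes. For the annotation and the strand setting, the sources used here give nothing. The 92 spike-in rows were left out of library sizes and tests, except in 1 alternative.

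Counts were fitted with edgeR 4.0.16 in R 4.3.3 (TMM scaling, filterByExpr, 14534 genes kept, 22 group means with 22 residual degrees of freedom, quasi-likelihood F test, Benjamini-Hochberg adjustment over all genes, threshold 0.05). The filter used groups, so a low gene could pass through 1 group. SE was taken as the size of the log2 fold change over the root of F. CPM used TMM-scaled library sizes. Averages over times weight each time equally and treat libraries of different times as independent, and SDs over 14 libraries mix time with replicate spread. Nothing in the labels says that replicates were separate cultures, so p-values measure only the spread between these libraries. Depth was 10.9 to 25.3 M counts per library.

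Same-numbered libraries of the arms deviated together at all 11 times (correlations 0.263 to 0.833 over 10090 genes whose log2 CPM averaged 3 or more). The replicate number was therefore taken as a block, and values with it are printed where they change a call or a count by over 1.5 times. This block fitted a common replicate difference over all arms and times and did not pair the libraries of each time. Replicate differences varied between groups, for VGF from -0.06 to 3.15 on the log2 scale. After 14 h the same-numbered libraries of the arms lay in different lanes, so block values there are not comparisons within a lane. Alternatives were the block, a block within each time (chosen after seeing the data), RLE scaling, spike-in scaling, no filter, the 28 libraries of 0 to 14 h alone, DESeq2 1.42.0, single lane sets and leaving out each library. The fits were run on simulated data, with an outcome not given here. The simulated libraries varied independently, so that check did not cover replicates that vary together. The members and gene lists were chosen with earlier results of these data known. All members are accounted for. Described in full were the 6 called members with the highest and up to 4 with the lowest fold change (0 were called lower), the 3 with the widest Tet minus course among members whose log2 CPM averaged 1 or more, those called at 4 or more early times and their listed paralogs, and up to 3 genes per other list with the smallest adjusted p. Members with a course test or a late call were described beside these, after their values were seen. Exon lengths came from GENCODE, used for lengths and overlaps only, and promoters from RefSeq.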

Additional observations from a re-analysis of the deposited data

How the results depend on the processing

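With the replicate block, members called numbered 21 higher and 2 lower at 0 to 14 h, 23 higher and 2 lower at 16 to 22 h, and by time 5 (0 h), 5 (3 h), 7 (6 h), 7 (8 h), 7 (10 h), 7 (12 h), 7 (14 h), 15 (16 h), 9 (18 h), 15 (20 h) and 19 (22 h). Course calls with the block numbered 6 in Tet plus and 19 in Tet minus cells, for 6 over 0 h 3 in Tet plus and 5 in Tet minus, and for 22 over 16 h 6 in Tet plus and 5 in Tet minus. A block within each time gave 25 higher and 1 lower at 0 to 14 h. Within the lanes of 0, 3 and 6 h the block gave 12 members higher and 1 lower, and within those of 8, 10 and 12 h 15 higher and 2 lower. The block ended no call of a member in any of these comparisons, and apart from the calls gained in these counts it changed no other call of a member. Under spike-in scaling all genes had a median of 0.13, against 0.01 without it, and the test called 0 members at 0 to 14 h, with CADPS at 1.23 (adjusted p = 0.0969), and only 44 of all genes were higher and 4 lower. It also reversed UNC13A to 0.18 and SCG5 to 0.055. Single lane sets called 6, 6 and 3 members, with fewer libraries, and reversed SCG5 to 0.20 and SYT7 to -0.034 (0, 3 and 6 h), RAB3A to -0.022 (8, 10 and 12 h) and RAB27B to -0.082 (14 h). Without the filter 1 member was called at 3 h, 1 at 12 h and 0 in the Tet plus course. Leaving out 1 library gave 10 to 15 members higher and 0 to 1 lower at 0 to 14 h and 9 to 17 higher and 0 to 1 lower at 16 to 22 h. By time it gave 1 to 1 (0 h), 1 to 1 (3 h), 1 to 3 (6 h), 1 to 2 (8, 10 and 12 h), 1 to 3 (14 h), 3 to 6 (16 h), 1 to 5 (18 h), 2 to 9 (20 h) and 3 to 9 (22 h). Courses gave 0 to 1 in Tet plus and 2 to 5 in Tet minus cells, 6 over 0 h 0 to 1 in Tet plus, and 22 over 16 h 0 to 2 in Tet plus and 0 to 1 in Tet minus cells. A lone library at a time was assumed to vary like the other groups. Signs turned in the ranges of UNC13A (-0.12 to 0.060), SYT7 (-0.042 to 0.23), CPLX1 (-0.0045 to 0.37), CPLX2 (-0.027 to 0.23) and SCG5 (-0.35 to 0.077), none of them called. The cause of these shifts was not tested.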
